A study of Mus musculus with 168 samples.

Results

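Mir221 and Mir222 are a pair of neighbouring microRNA genes on the mouse X chromosome, and their levels were followed in the hippocampus of the Htt CAG knock-in allelic series. The pair was chosen by name, as the rows of the hippocampus count table whose Ensembl transcripts map to the symbols Mir221 and Mir222 in GENCODE M21, which gave 2 of the 1626 transcripts in the table. Its lower level with longer CAG repeats at 6 and 10 months was known when it was chosen, so the values of those contrasts are given below as a description with no test. Contrasts that the choice did not use (2 months, sex, and the way both microRNAs vary between animals of one group) are tested.

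All animals were labelled as C57BL/6 mice, in which either both copies of Htt were unmodified (WT) or one copy carried a human HTT exon 1 with a CAG repeat of the length in the line's name (Het knock-in Q20, Q80, Q92, Q111, Q140 or Q175). Each genotype was sampled at 2, 6 and 10 months of age with 8 animals a group and 1 library per animal. Most groups held as many females as males, except Q80 at 2 months and Q20 at 10 months. WT and Q20 together are called controls below. The WT animals were littermates of the Q20 line, and the labels give them as housed with it. Animals of each other line are labelled as housed with their own line, so genotype cannot be told apart from line and housing. The Q175 line arose from the Q140 line by spontaneous expansion of its repeat. The hippocampus was sequenced as bulk tissue, in which fewer cells of a type and less RNA per cell cannot be told apart.

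MicroRNAs are short RNAs that are cut from a hairpin in a longer transcript and guide Argonaute proteins to messenger RNAs, mostly through the bases next to their 5′ end (the seed). The miR-221 and miR-222 pair is made from a single primary transcript and shares a seed. It is known as a repressor of the cell cycle inhibitor Cdkn1b and of the receptor gene Kit, it is abundant in endothelial and smooth muscle cells, and in neuron-like rat cells it is induced by nerve growth factor and represses the cell death gene Bcl2l11.

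In GRCm38 both hairpins lie on the minus strand, Mir222 at chrX:19146893-19146971 and Mir221 at chrX:19146294-19146388, with 504 bases between them. Transcription on the minus strand reads Mir222 first. GENCODE M21 annotates both as miRNA genes of their own, and no other annotated gene overlaps either of them. The nearest other gene, the processed transcript Gm14636 on the same strand, lies 10010 bases away, and the count table holds 0 further microRNAs within 200 kb. The mature sequences are shown because the pair is defined by its shared seed, and the third sequence because it has the same seed. RefSeq gives them as follows, with the seed (bases 2 to 8) in capitals:
mmu-miR-221-3p: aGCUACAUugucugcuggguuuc
mmu-miR-222-3p: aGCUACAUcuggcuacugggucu
mmu-miR-1928: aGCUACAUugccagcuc

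The first 8 bases of miR-221-3p and miR-222-3p were identical, and 11 of their 23 positions matched when they were aligned from the 5′ end. Their 3′ parts therefore tell reads of one from reads of the other. Of the 1738 mature mouse sequences in the RefSeq table, 3 had this seed, those of the pair and of miR-1928, from a hairpin on chromosome 1. A second arm was listed for Mir221 (its seed in capitals), and no other sequence in the table had that seed:
mmu-miR-221-5p: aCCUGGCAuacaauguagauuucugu

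The table counts reads per hairpin, so a value can hold reads of both arms. The hairpins are shown with the 3p arm in capitals, which stands toward the 3′ end of each:
Mir221 hairpin: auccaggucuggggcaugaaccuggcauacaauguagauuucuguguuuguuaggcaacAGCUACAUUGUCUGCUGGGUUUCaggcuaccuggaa
Mir222 hairpin: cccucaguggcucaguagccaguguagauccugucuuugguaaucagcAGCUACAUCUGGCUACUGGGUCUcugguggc

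Both members were abundant and counted with little sampling error. A library held 5700 to 29332 counts of Mir221 and 5654 to 26829 counts of Mir222, or 0.296% and 0.286% of all counts. Levels are given as CPM, counts relative to a common library size, after TMM scaling, which corrects that size for a few dominant RNAs. Over all libraries Mir221 averaged 2948 CPM and Mir222 2854 CPM, places 54 and 56 among the 470 transcripts that passed the low-count filter. Per kilobase of hairpin, Mir222 had 36129 CPM and Mir221 31027 CPM, so the order of the pair was the other way round on that scale. Deposited counts of many transcripts were fractional, but those of Mir221 and Mir222 were whole in every library. Those of Mir1928, the third gene with this seed, were fractional in every library. miR-1928 has 17 bases and shares its first 10 with miR-221-3p and its first 8 with miR-222-3p. At 6 months Mir1928 averaged 8.49 CPM in Q175 and 6.79 CPM in WT, against 204.8 CPM in Q20, a gap that follows the library blocks described below, so no comparison is drawn for Mir1928.

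Library totals ran between 2117539 and 9099227 counts with a median of 3374648. Labels carry an L code, whose meaning the sources do not give and which is called a batch here: L2, L3 and L4 at 2 months, and L6, L7 and L8 at 10 months. Labels of 6 months also carry L codes, but blocks of library numbers were used as the batch there. Block B, with the 40 libraries of the other genotypes, was treated as 1 batch, though its libraries did not all have the same L code. Block A held all 16 WT and Q175 libraries. The deposited RPKM also stood in another relation to the counts in block A. There the RPKM of Mir221 computed from the counts equalled the deposited one (ratio 1), while in the other 152 libraries it was 1.5 times the deposited one (range 1.46 to 1.55). Marker microRNAs differed widely within each cell type's list. Among those of neurons, Mir9-2 had a median of 40572 CPM and Mir124a-1 6085 CPM, but Mir124a-2 only 4.63 CPM. On the list of choroid plexus and epithelium, Mir204 had 6581 CPM and Mir200c 0.63 CPM.

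**Figure D1:**
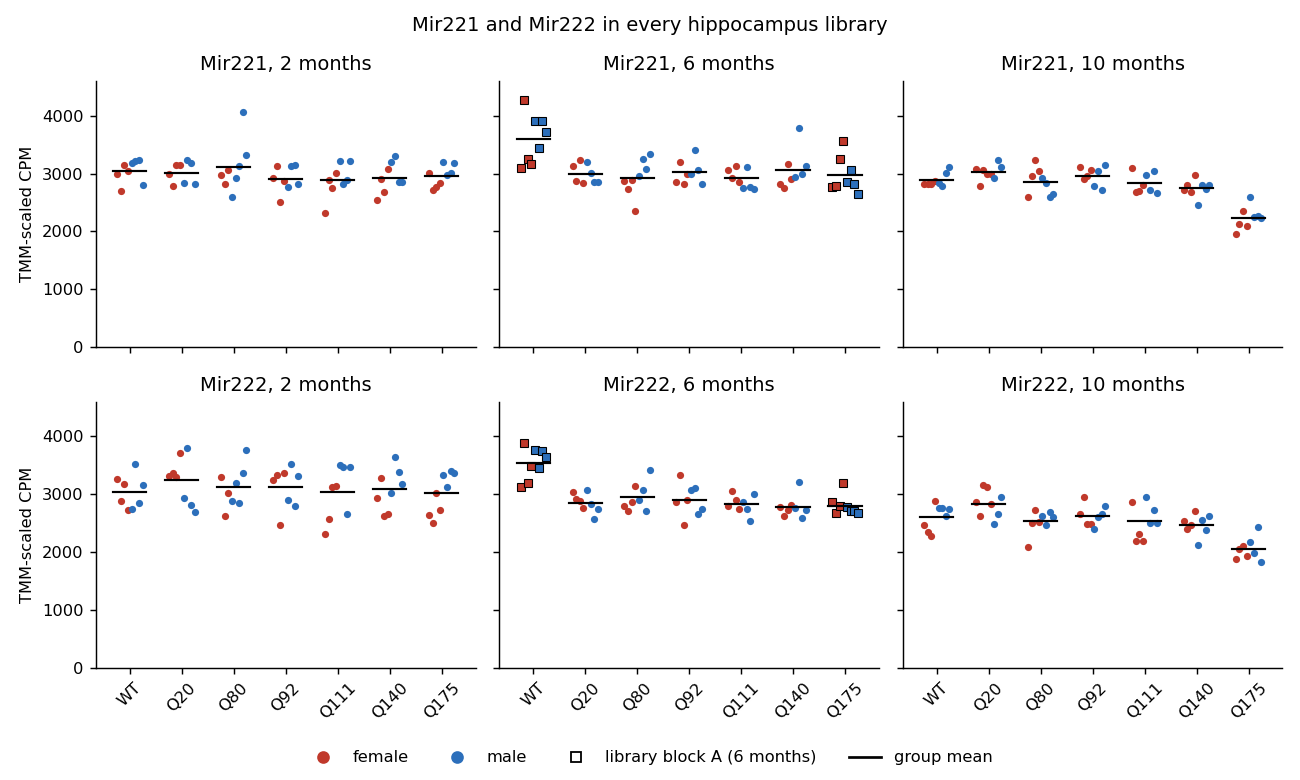
TMM-scaled CPM of Mir221 (top) and Mir222 (bottom) in each library, by genotype at 2, 6 and 10 months. Each point is a library, red for females and blue for males, squares mark library block A at 6 months, and lines are group means. At 10 months the 8 Q175 libraries have 1964 to 2590 CPM of Mir221, below all 16 control libraries, and at 6 months the WT mean, in block A, is the highest (3597 CPM of Mir221).

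At 10 months, Q175 hippocampus had the least of both microRNAs. Mir221 had a lowest value of 1964, a median of 2240 and a highest value of 2590 CPM in the Q175 libraries, against 2782, 2962 and 3227 CPM in the 16 control libraries. All 8 Q175 libraries lay below all 16 controls. Of the 470 transcripts tested, 0.638% had this pattern (Q175 entirely below the controls), and 1.70% had no overlap in either direction. The choice of the pair used this contrast, so nothing further is read from that share. For Mir222 the lowest, median and highest values were 1835, 2016 and 2428 CPM in Q175 and 2279, 2754 and 3162 CPM in controls. Of the 8 Q175 libraries, 7 lay below every control, and the exception, male M3 of batch L7, had 2428 CPM. Its Mir221 level, 2259 CPM, was in the middle of the Q175 group. For such a partial separation from the controls the share of transcripts was not computed.

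The fitted difference between Q175 and controls at 10 months was -0.41 on the log2 scale for Mir221 (SE 0.036), 0.75 of the control level, and -0.41 for Mir222 (SE 0.054), also 0.75. The 2 fitted differences lay within their errors of each other. Q175 group means were 2236 ± 186 CPM for Mir221 and 2049 ± 192 CPM for Mir222, against 2884 ± 116 and 2608 ± 221 CPM in WT (SD, n = 8). The edgeR fit called 14.9% of the 470 transcripts in this contrast. The difference was below 0 in each batch. In L6 it was -0.53 for Mir221 and -0.55 for Mir222 (3 Q175 and 8 control libraries). It was -0.31 and -0.26 in L7 (3 and 6 libraries), and -0.37 and -0.35 in L8 (2 and 2 libraries). All 3 Q175 libraries of L6 came from females and all 3 of L7 from males. The controls were mostly Q20 in L6, mostly WT in L7 and WT alone in L8. Sex, control genotype and batch therefore cannot be told apart in that spread.

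Over all genotypes at 10 months, the level of Mir221 stood in the order Q20 (3022 CPM), Q92 (2966), WT (2884), Q80 (2853), Q111 (2833), Q140 (2743) and Q175 (2236). The step between Q140 and Q175, 507 CPM, was larger than the SD of either group. No other neighbours in that order differed by more than the larger of their SDs. For Mir222 the order was Q20 (2837 CPM), Q92 (2628), WT (2608), Q111 (2529), Q80 (2528), Q140 (2470) and Q175 (2049), and again only the last step, 422 CPM, exceeded the larger SD. Against all 48 other libraries of that age, 7 of 8 Q175 libraries lay below every one for Mir221 and 5 of 8 for Mir222. All 8 Q175 libraries lay below all 48 others for 0.00% of transcripts, and 0.638% were fully separated in either direction. The share of transcripts with a partial separation like that of the pair was not computed.

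The shorter alleles differed less from controls at 10 months. Mir221 was -0.13 (SE 0.036) in Q140, -0.079 (SE 0.035) in Q111, 0.0070 (SE 0.036) in Q92 and -0.054 (SE 0.036) in Q80, all on the log2 scale. For Mir222 the same differences were -0.12, -0.10, -0.011 and -0.072 (SE 0.054 to 0.055). The slope over CAG length, fitted with WT as 7 repeats, was -0.20 log2 per 100 repeats for Mir221 (SE 0.028) and -0.19 for Mir222 (SE 0.035). The slope call covered 11.1% of the transcripts tested. Much of the slope rests on the Q175 libraries: without them it was -0.064 for Mir221 and -0.069 for Mir222.

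**Figure D2:**
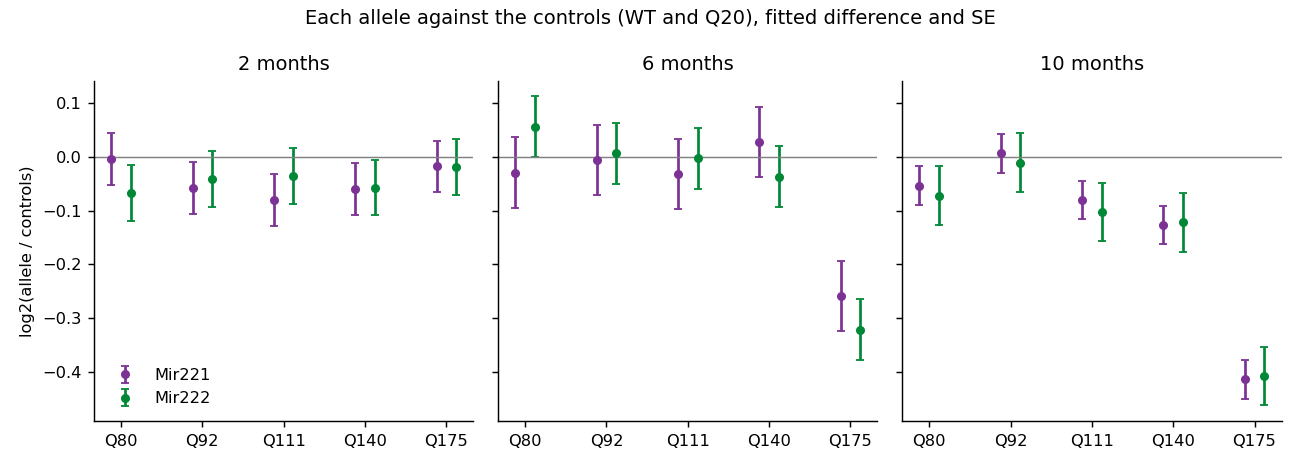
Fitted log2 difference of each allele from the controls (WT and Q20) at 2, 6 and 10 months, for Mir221 (purple) and Mir222 (green); bars are standard errors of the edgeR fit. Q175 lies at -0.41 for both at 10 months and at -0.26 and -0.32 at 6 months, while at 2 months the lowest value is -0.080 (Q111, Mir221). At 6 months the block term sets Q175 against WT and the other alleles against Q20.

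Neuronal marker microRNAs were mostly lower in Q175 at 10 months. Their list was chosen with earlier results of these data known. Its entries come from a few families (such as Mir128-1 and Mir128-2), so the count of calls is a description. Of the 12 neuron markers tested, 6 were called lower and 0 higher, and 2 lay above 0. Their median log2 difference was -0.13, against 0.0057 over all transcripts. Of all transcripts, 8.09% were called lower in this contrast and 14.9% in either direction, which is also the background of the other lists here. The summed level of the neuron markers ran between 79335 and 85727 CPM (median 82348) in Q175, and between 83497 and 92963 CPM (median 87953) in WT. In Q20, the other control, it ran between 81569 and 92937 CPM (median 88877). Mir218-2, on this list, is also among the microRNAs most like Mir221 below. Vascular and mesenchymal markers, of which 7 were tested, had 0 calls, a median log2 difference of -0.10 and a summed level of 16555 to 27372 CPM (median 18044) in Q175, against 17098 to 31442 CPM (median 18304) in WT. In Q20 they summed to 16973 to 25228 CPM (median 18373). The 11 markers of choroid plexus and epithelium also had 0 calls, but their median difference was -0.36, and they summed to 5362 to 28523 CPM (median 6391) in Q175, against 6316 to 32121 CPM (median 7423) in WT. In Q20 they summed to 6337 to 28419 CPM (median 6951). Markers of red blood cells (2 tested, median -0.19), microglia and leukocytes (4, median -0.014) and oligodendrocytes (3, median 0.017) had 0 calls in either direction. Called or not, 1 of 7 vascular and mesenchymal markers and 1 of 11 of choroid plexus and epithelium lay above 0. For red blood cells it was 0 of 2, for microglia and leukocytes 2 of 4, and for oligodendrocytes 3 of 3. The part of any cell type in the Q175 result was not tested.

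At 6 months the comparison of Q175 depends on which libraries serve as its control. Within block A, Mir221 had a lowest value of 2646, a median of 2839 and a highest value of 3559 CPM in Q175, against 3096, 3579 and 4279 CPM in WT. Mir222 had 2670.8, 2745 and 3199 CPM in Q175, against 3128, 3560 and 3891 CPM in WT. Below all 8 WT libraries lay 6 of 8 Q175 libraries for Mir221 and 7 of 8 for Mir222, and the groups overlapped in both. Complete separation of these groups was seen for 0.638% of transcripts in either direction, and for 0.426% with Q175 lower. Neither member showed it, and the share of transcripts with 6 or 7 of 8 libraries below all WT was not computed. The fitted difference from controls was -0.26 (SE 0.065) for Mir221 and -0.32 (SE 0.056) for Mir222, in a contrast that called 2.55% of the transcripts.

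The Q175 libraries were not low by comparison with block B. Their mean of 2969 CPM for Mir221 was close to that of Q20 (3000 CPM), and that of Mir222 was 2799 CPM in Q175 and 2851 CPM in Q20. What stood apart was WT, with 3597 ± 423 CPM of Mir221 and 3539 ± 274 CPM of Mir222 (SD, n = 8). In the order of levels at 6 months, Mir221 followed WT with Q140 (3060 CPM), Q92 (3021), Q20 (3000), Q175 (2969), Q80 (2932) and Q111 (2917). For Mir222 the order after WT was Q80 (2953 CPM), Q92 (2893), Q20 (2851), Q111 (2830), Q175 (2799) and Q140 (2778). WT was the only genotype whose gap to the next exceeded the larger SD, for both members. With Q20 alone as the control and hence across the blocks, Q175 differed by -0.0058 for Mir221 and by -0.016 for Mir222. None of the neuron markers was called in the Q175 contrast at this age (median -0.040, against 0.033 over all transcripts). Since WT and Q175 make up block A, a higher level in WT and a lower level in Q175 cannot be told apart from a difference between the blocks.

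Within block B the pair showed little relation to the allele. Q80, Q92, Q111 and Q140 lay between -0.032 (Q111) and 0.028 (Q140) for Mir221 and between -0.037 (Q140) and 0.056 (Q80) for Mir222, on the log2 scale and in effect against Q20, with SE of 0.056 to 0.065. These ends moved when a library was left out: without male M2, Q140 was at -0.044 for Mir221 and -0.094 for Mir222, and without male M4, Q80 was at 0.017 for Mir222. The slope per 100 repeats at 6 months was -0.094 (SE 0.032) for Mir221 and -0.13 (SE 0.029) for Mir222, in a contrast with 1.28% of transcripts called. Without block A it was 0.0051 for Mir221 and -0.037 for Mir222. Without Q175 the slopes were -0.00061 for Mir221 and -0.043 for Mir222, and without WT -0.013 and -0.054.

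At 2 months, libraries that had no part in singling out the pair showed no slope that passed the test. The slope was -0.028 log2 per 100 repeats for Mir221 (SE 0.026, 95% interval -0.080 to 0.023) and -0.018 for Mir222 (SE 0.028, interval -0.074 to 0.037), each with adjusted p = 0.988 in edgeR. The same fit called 1 of the 470 transcripts (0.213%). Q175 and controls overlapped. Mir221 had 2717, 2992 and 3208 CPM (lowest, median, highest) in Q175, against 2703, 3094 and 3232 CPM in controls. For Mir222 the values were 2493, 3072 and 3396 CPM in Q175 and 2688, 3169 and 3791 CPM in controls, and 2 of 8 Q175 libraries lay below all controls. The difference was -0.017 for Mir221 and -0.019 for Mir222 (edgeR adjusted p = 0.997 for both), with 95% intervals of -0.11 to 0.078 for Mir221 and -0.12 to 0.085 for Mir222. These intervals leave out the size of the difference seen at 10 months, a contrast that the choice of the pair used. Whether the difference changed with age was not tested.

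All 10 differences of an allele from controls at 2 months were below 0, from -0.0036 to -0.080 log2, and none passed the test. They share their 16 controls. The Q111 value of Mir221, -0.080 (SE 0.048, edgeR adjusted p = 0.384), was the largest in size, in a contrast with 0.213% of transcripts called. Contrasts of the other alleles called 0.00% each by edgeR, with 16 to 31 transcripts at an unadjusted p under 0.05, and 0 to 3 by DESeq2. In the order of levels at 2 months no neighbouring genotypes differed by more than the larger of their SDs, for either member: Mir221 means spanned 2888 (Q111) to 3112 CPM (Q80) and Mir222 means 3012 (Q175) to 3237 CPM (Q20).

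Ages were sequenced in different batches, so age and batch cannot be told apart. In Q175, Mir221 averaged 2963, 2969 and 2236 CPM at 2, 6 and 10 months and Mir222 3012, 2799 and 2049 CPM. In WT the means at these ages were 3042, 3597 and 2884 CPM for Mir221 and 3039, 3539 and 2608 CPM for Mir222.

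As both genes are X-linked, females were compared with males at each age with genotype and batch in the model. At 2 months the 27 females had a lowest, median and highest Mir221 level of 2323, 2904 and 3148 CPM, against 2598, 3130 and 4069 CPM in the 29 males. Mir222 had 2312, 3024 and 3707 CPM in females, against 2651, 3185 and 3791 CPM in males. The sexes overlapped widely in both. Female minus male was -0.075 on the log2 scale for Mir221 (SE 0.030) and -0.068 for Mir222 (SE 0.032), with edgeR adjusted p = 0.332 and 0.423, so neither passed the test. Without a batch term, the mean of females was lower in 7 of 7 genotypes for Mir221 (-0.00024 in Q20) and in 6 of 7 for Mir222. Batch L2, with the highest mean of both members at this age, held mostly males. In controls only, the fitted difference was 0.0057 for Mir221 and 0.060 for Mir222. Of the 470 transcripts, 0.426% passed the sex test, Mir488 and Mir1247, both autosomal.

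At the later ages no sex difference of the pair passed the test either. It was -0.051 at 6 months and -0.015 at 10 months for Mir221 (edgeR adjusted p = 0.964 and 0.828), and -0.011 and -0.045 for Mir222 (adjusted p = 0.964 and 0.672). Without Q175, that of Mir221 was -0.062 at 2 months and -0.074 at 6 months and passed edgeR's test at neither age. Whether it differed between ages was not tested. On means without a batch term, females were lower in 4 of 7 genotypes at 6 and at 10 months for each member. Of the 41 X-linked microRNAs tested, including the pair, 0 passed the sex test at any age. edgeR called 0.00% of transcripts at 6 and 10 months, with 32 and 63 at an unadjusted p under 0.05, and DESeq2 called 0 and 1.

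**Figure D3:**
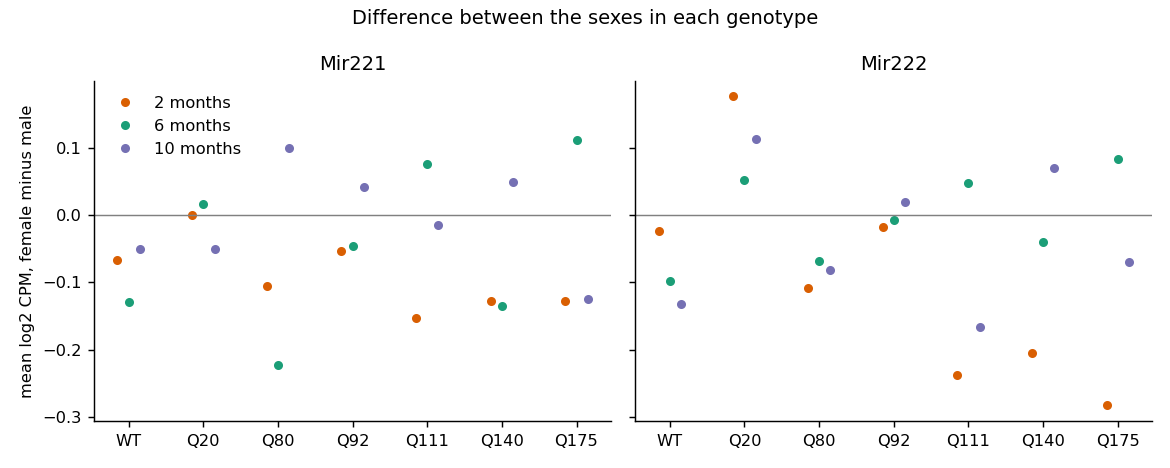
Mean log2 CPM of females minus that of males in each genotype, with no batch term, for Mir221 (left) and Mir222 (right) at 2, 6 and 10 months. At 2 months the 7 genotypes lie below 0 for Mir221 and 6 of 7 for Mir222, while at 6 and 10 months 4 of 7 lie below 0 for each member. None of the overall differences passed the test.

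Whether the slope over CAG length differed between the sexes was tested with a product term. Mir222 at 2 months gave the largest value, -0.15 log2 per 100 repeats, female minus male (SE 0.053, unadjusted p = 0.0054), which did not pass after adjustment over all transcripts (adjusted p = 0.534). In fits of each sex alone the slope of Mir222 at that age was -0.097 in females and 0.060 in males. Mir221 at 2 months was -0.083 (edgeR adjusted p = 0.783). At 6 and 10 months the product terms lay between -0.022 and 0.057 over both members, with adjusted p of 0.997 and above. At 10 months the slopes of females and males alone were -0.19 and -0.19 for Mir221 and -0.21 and -0.18 for Mir222. The product term was called for 0.00%, 0.213% and 1.06% of transcripts at 2, 6 and 10 months, the pair not among them. edgeR counted 31 transcripts at an unadjusted p under 0.05 at 2 months, where DESeq2 called 0.

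Animals of one group that had more Mir221 also had more Mir222. Each library was set against the mean of its own genotype and age, which takes out the differences for which the pair was chosen. The correlation of these deviations over 56 libraries was r = 0.53 at 2 months, 0.59 at 6 months and 0.50 at 10 months, with Spearman's rho of 0.51, 0.55 and 0.47. In a two-sided permutation test within groups (100000 draws), Pearson p was 1e-04, 2e-05 and 0.00017, or 0.00015, 6e-05 and 0.00017 after Benjamini-Hochberg adjustment over the 3 ages. For rho the adjusted p was 3e-04, 0.00024 and 0.00056. Without the 2 libraries farthest from the median of Mir221, r was 0.49, 0.65 and 0.49.

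The relation held in 7 of 8 batches. Within batches, r was 0.74 in L3 (30 libraries) and 0.57 in L4 (20) at 2 months, but -0.20 in L2 (6). At 6 months it was 0.85 in block A (16 libraries) and 0.46 in block B (40). At 10 months it was 0.64 in L6 (16), 0.42 in L7 (30) and 0.94 in L8 (10). With group, sex and batch all taken out, r was 0.54, 0.59 and 0.55 at 2, 6 and 10 months. Some other microRNAs varied more closely with a member than its partner did, except with Mir222 at 6 months. Among 469 partners, by the deviations that were tested, Mir222 took place 6, 8 and 4 for Mir221 at the 3 ages. Mir221 took place 36, 1 and 16 for Mir222. With group, sex and batch removed (a ranking chosen after seeing the data), the places were 5, 9 and 2 for Mir221. For Mir222 they were 14, 1 and 11. By the tested deviations, the median r with all other transcripts was 0.011, 0.031 and 0.023 for Mir221 at the 3 ages. For Mir222 it was -0.017, 0.025 and -0.0044. As other microRNAs took higher places in most rankings, the shared variation need not be particular to the pair. All values of a library share its scaling and its RNA, and the cause of the shared variation was not tested.

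**Figure D4:**
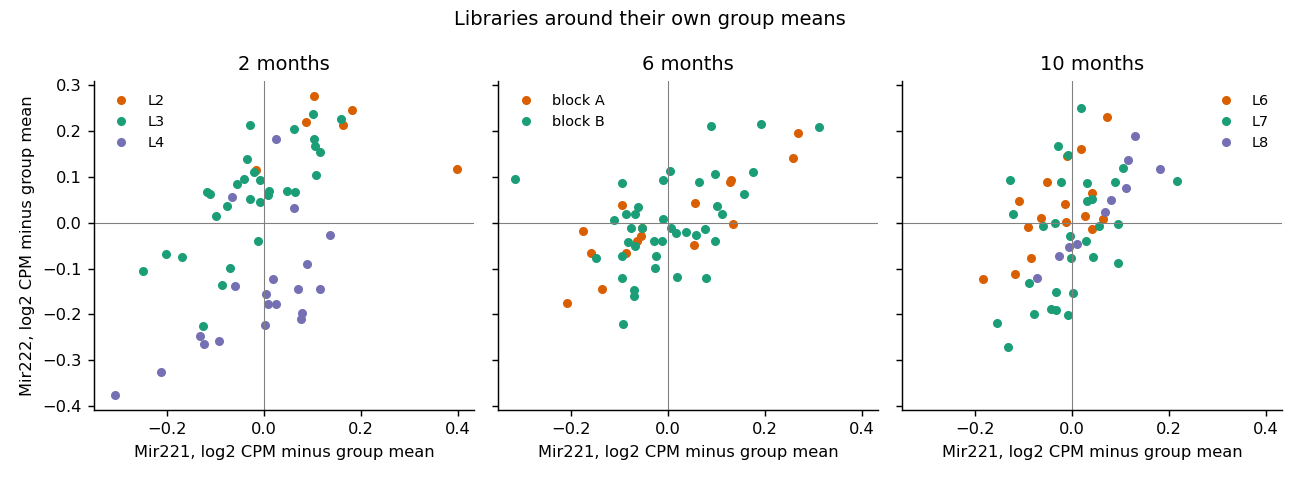
Deviation of each library from the mean of its own genotype and age in log2 CPM, Mir221 on the x axis and Mir222 on the y axis, at 2, 6 and 10 months, with colours for batches. Both deviate together at each age (r = 0.53, 0.59 and 0.50). At 2 months most libraries of L4 lie below those of L3 in Mir222 at the same level of Mir221.

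The ratio of Mir222 to Mir221 within a library needs no scaling between libraries. It showed little relation to the genotype at 2 and 10 months. At 10 months its log2 value averaged -0.13 ± 0.12 for the Q175 group, while WT had -0.15 ± 0.12 and Q20 -0.095 ± 0.12 (SD over 8 libraries), and the other genotypes lay between -0.18 and -0.15. At 6 months it averaged -0.081 ± 0.096 in Q175 and -0.019 ± 0.079 in WT, both of block A. Group means in block B ran between -0.14 ± 0.088 (Q140) and 0.014 ± 0.18 (Q80), with Q20 at -0.074 ± 0.062. The Q80 group holds female F4 with a ratio of 0.42, and its median was -0.020. At 2 months group means ran between -0.0043 (WT) and 0.094 (Q20), with SDs of 0.13 to 0.17. The ratio did move with the batch. At 2 months it was 0.13 ± 0.083 in L3 (30 libraries) and -0.090 ± 0.12 in L4 (20 libraries). Mir222 averaged 3221 CPM in L3 and 2770 CPM in L4, while Mir221 averaged 2932 and 2947 CPM. At 10 months the ratio was -0.071 ± 0.077 in L6, -0.18 ± 0.12 in L7 and -0.18 ± 0.040 in L8. The lower ratio at 10 than at 2 months cannot be told apart from these batches.

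The genes whose group means resembled the pair most were ranked by Pearson's r over the 21 group means, centred within each age, among 406 candidates with a symbol. Each member was the other's closest partner, with r = 0.93. This is a description, since the groups that set both members apart (WT at 6 months, Q175 at 10 months) lie farthest from 0 in it. After Mir222, the group means closest to those of Mir221 were those of Mir3078 (r = 0.80), Mir218-2 (0.78), Mir133a-1 (0.78) and Mir24-2 (0.78). Mir218-2 is a neuronal microRNA, and Mir133a-1 is best known from muscle. For Mir222 they were those of Mir3102 (r = 0.83), Mir5129 (0.81), Mir133a-1 (0.77) and Mir3078 (0.77). None of these is X-linked.

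**Figure D5:**
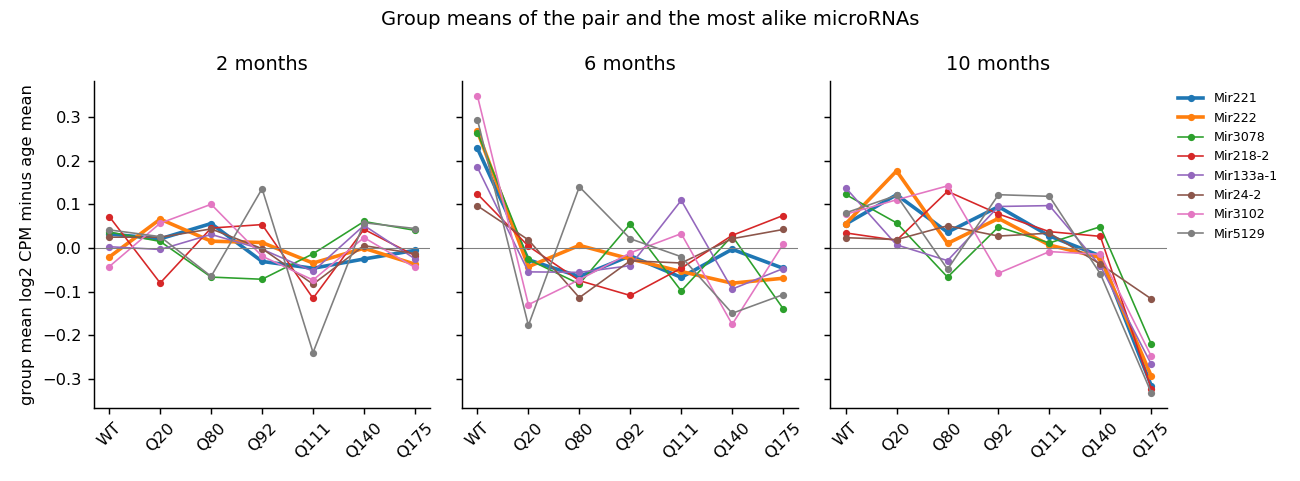
Group means of log2 CPM, centred within each age, for the pair (thick lines) and the 6 microRNAs most like either member, at 2, 6 and 10 months. At 10 months all 8 lines are lowest in Q175, and at 6 months all are highest in WT.

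The partners shared the low Q175 value at 10 months to different degrees. The log2 difference of Q175 from controls was -0.35 for Mir218-2, -0.35 for Mir3102, -0.35 for Mir133a-1, -0.40 for Mir5129, -0.30 for Mir3078 and -0.14 for Mir24-2. At 6 months it was -0.38 for Mir3078, -0.39 for Mir5129 and -0.33 for Mir3102, but -0.017 for Mir218-2 and -0.030 for Mir24-2. Over all libraries, centred within age and batch, each member was the other's closest partner (r = 0.73). This centring leaves in the genotype differences for which the pair was chosen, so it too is a description. Places with the group means taken out are given above. Most of the other likenesses were weaker there. Mir218-2 stayed second for Mir221 (r = 0.51), while Mir3078 fell to place 38 (r = 0.29) and Mir133a-1 to place 57 (r = 0.23).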

How the data were processed

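Short RNA of each hippocampus was sequenced, 1 library per animal. The methods describe miRNeasy extraction, single-end HiSeq2000 sequencing, STAR alignment to mm10 and HTSeq counting, and CASAVA 1.8.2 is listed in the submitters' processing notes. Values deposited by the authors were estimated counts, many of them fractional, though the design had assumed whole counts, so they were rounded to whole numbers, and RPKM values from the authors, used only as a check. Sources used here do not name the program behind the fractional counts.

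Transcripts were matched to GENCODE M21 (1228 of 1626). Sequences came from RefSeq (GRCm38.p6). edgeR 4.0.16 in R 4.3.3 filtered low counts (filterByExpr, minimum count 10), leaving 470 transcripts, scaled by TMM and fitted quasi-likelihood models at each age, with sex and batch as covariates (genotype and batch for the sex test) and Benjamini-Hochberg adjustment over all 470 at a threshold of 0.05. Allele models used 1 factor over the 56 libraries of an age. Log2 CPM used a prior count of 0.5. The scripts were tested on simulated data. No 2 of 588 library pairs within groups were identical. Members and lists were chosen with earlier results of these data known. Named partners were the 5 most like each member. Alternatives were RLE scaling, DESeq2 1.42.0, no filter, no batch term, a replicate block, other control or genotype sets, one sex, and leaving out each library.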

Additional observations from a re-analysis of the deposited data

Results flagged for a closer look

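In 63 groups of 8 libraries (Mir221, Mir222 and their ratio, each in every genotype and age), 5 values from 4 libraries stood apart from the rest of their group, where chance flags about 1 in 20 groups. Male M2 of Q140 at 6 months was highest in its group for both members, with 3780.1 CPM of Mir221 (next library 3171) and 3207.15 CPM of Mir222 (next 2812). Female F4 of Q175 at 6 months had 3198.77 CPM of Mir222, and the next library had 2872 CPM. Female F1 of Q80 at 10 months was lowest for Mir222 with 2087.37 CPM, and the next library had 2469 CPM. Female F4 of Q80 at 6 months had a log2 ratio of Mir222 to Mir221 of 0.423508, against 0.037 in the next library. Without these libraries, an alternative chosen after seeing the data, the Q175 difference was -0.30 for Mir221 and -0.35 for Mir222 at 6 months, and -0.40 and -0.39 at 10 months.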

How the results depend on the processing

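Of 1512 values of the tested slopes, allele differences, sex differences and product terms under alternative settings, 0 passed the threshold. Most of these came from leaving out a single library. The correlations were not part of this count, and no p was computed for their alternatives. RLE scaling and DESeq2 kept the direction of every value of the pair, and without the low-count filter only differences of Q92 near 0 for Mir222 (6 and 10 months) changed sign. At 6 months, without the batch term the differences of Q80, Q92, Q111, Q140 and Q175 from controls were -0.17, -0.15, -0.18, -0.12 and -0.13 for Mir221 and -0.12, -0.17, -0.18, -0.21 and -0.17 for Mir222. With WT alone as the control at 6 months, across the blocks, Q80, Q92, Q111 and Q140 were at -0.29, -0.27, -0.29 and -0.25 for Mir221 and at -0.26, -0.31, -0.32 and -0.36 for Mir222. With Q20 alone, Q175 was at -0.0058 for Mir221 and -0.016 for Mir222. Without Q175 the slope of Mir221 at 10 months was -0.064. Differences near 0 changed sign at 2 months: the slopes of males only (0.022 for Mir221, 0.060 for Mir222), Q80 for Mir221 without a batch term (0.028), with the replicate block (0.0075) or with WT alone (0.0032), and for Mir222 with WT alone Q92 (0.019), Q111 (0.022), Q140 (0.0019) and Q175 (0.038). The sex difference at 2 months was 0.0057 for Mir221 and 0.060 for Mir222 in controls only, and that of Mir221 at 10 months was 0.0029 without Q175. The correlation was -0.20 in L2. The cause of these changes was not tested.

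Leaving out each library, the Q175 difference ranged from -0.43 to -0.39 (Mir221) and -0.45 to -0.38 (Mir222) at 10 months. Tested values that crossed 0 were the product of sex and slope at 10 months (-0.013 to 0.044 for Mir221, -0.066 to 0.0013 for Mir222), Q175 for Mir222 at 2 months (-0.059 to 0.0020), Q80 for Mir221 at 2 months (-0.039 to 0.028) and sex for Mir222 at 6 months (-0.026 to 0.00041). The labels do not say that replicate numbers mark animals kept or handled together. The deviations of same-numbered libraries had a mean r of 0.0070, 0.0047 and 0.0067 at 2, 6 and 10 months, and 39 of 162 such pairs at 2 months and 38 of 162 at 10 months were over 0.1. A library correlated best with its own number in 18, 10 and 15 of 56 cases, where an even draw gives 13.5, 14 and 13.5. The numbers were therefore not taken as pairs. With the replicate block the 10-month slopes were -0.20 and -0.19, with 81 transcripts called. Over the settings other than leaving out each library, calls over all transcripts at 10 months ranged from 0 to 81 for the slope (52 as reported) and 42 to 81 for Q175 (70), and at 6 months from 0 to 13 (6) and 1 to 219 (12), the 219 across blocks. At 6 months against WT alone, across the blocks, 175 to 213 were called for the other alleles, where 0 were as reported. The sex test at 2 months called 0 to 6 (2).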
